A study of Mus musculus with 2 samples.

Results

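The nuclear genes of respiratory complexes II to V were followed in total RNA of the mouse adrenal gland. Members were the protein-coding genes whose symbol starts with Sdha, Sdhb, Sdhc or Sdhd, with Uqcr, with Cox4 to Cox8 or with Atp5, together with Cyc1 and Cycs; the muscle and brown fat forms Cox7a1 and Cox8b were left out. This rule took 52 of 55536 gene identifiers and 51 symbols, since Atp5o was listed under 2 identifiers. By role they were 4 subunits and 4 assembly factors of complex II, 9 subunits of complex III, cytochrome c, 10 broadly used subunits and 5 tissue-type forms of complex IV, 5 subunits of the catalytic head of complex V and 11 of its membrane part and stalk. The 3 others were Cox7a2l, Atp5s and the second Atp5o identifier. No measured value entered the rule.

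The series held 1 group of 2 libraries: adrenal glands of adult female 5xFAD/CAST mice aged 8-10 months, labelled biological replicates 2 and 1 and called mouse 2 and mouse 1 here. 5xFAD is a transgenic mouse model of Alzheimer disease whose transgenes are expressed from the neuronal Thy1 promoter, and CAST is a wild-derived strain; the labels do not say whether both animals carried the transgenes, and the libraries come from separate biosamples under 1 donor identifier, which the labels do not explain. Libraries were made from 300 ng of RNA, depleted of ribosomal RNA, with ERCC spike-ins. There was no control group, so levels are described, the mice are set side by side, and p-values compare these libraries and not conditions.

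Complex II passes electrons from succinate to ubiquinone, complex III passes them on to cytochrome c, complex IV hands them to oxygen, and complex V, the ATP synthase, uses the resulting proton gradient to make ATP. Complex II is encoded wholly in the nucleus, whereas complexes III, IV and V each hold a few subunits from mitochondrial DNA. In the adrenal cortex the same mitochondria house steroidogenic cytochromes P450, and in humans inherited loss of complex II genes causes tumours of the chromaffin cells of the medulla.

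The members took 0.641% of the 32192201 expected counts of mouse 2 and 0.606% of the 36558609 of mouse 1. Cortex markers led: Star, the cholesterol carrier of steroid synthesis, reached 5742 TPM in mouse 2, against 5127 TPM in mouse 1 (TPM counts transcripts per length, scaled to a common total). By counts scaled to library size, 2 of the 6 cortex markers were higher in mouse 2 and 4 were lower. All 6 chromaffin markers were also present, with a median of 240.0 TPM in mouse 2, against 264 TPM in mouse 1. By the same scaled counts all 6 were lower in mouse 2. The 6 adipocyte markers summed to 2062 and 1258 TPM, and the 6 brown fat markers, Cox7a1 and Cox8b among them, to 668 and 377 TPM, and every marker of both lists was higher in mouse 2. The 5 red blood cell markers summed to 409 TPM in mouse 2 and 747 TPM in mouse 1. Of 6 skeletal muscle markers only Myl1 reached 1 TPM in both mice, Myh4 was listed at 0, and the 5 testis germ cell markers had no expected counts. Their part in the differences between the mice was not tested. In such bulk RNA, fewer cells of a type and less RNA per cell cannot be told apart.

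Most members were abundant. Of the 52, 48 had at least 1 TPM in both mice and 28 had at least 100 TPM in both, and 34 lay among the 500 most abundant of 22015 nuclear protein-coding genes. The median member had 121 TPM in mouse 2, against 109 TPM in mouse 1 (SD of these medians 8.33 TPM, n = 2). Taking each member's mean over both mice first, the median was 118 TPM. For scale, the median of the 11913 nuclear protein-coding genes with at least 1 TPM in both mice was 10.95 TPM in mouse 2, against 9.67 TPM in mouse 1. The 46 nuclear genes named for complex I, assembly factors included, had a median of 79.4 and 70.2 TPM, and the 78 mitochondrial ribosomal protein genes 26.5 and 22.8 TPM. Among the members, medians over both mice were 118 TPM for complex II subunits, 158 TPM for complex III, 212 TPM for the broadly used complex IV subunits and 147 TPM for complex V. Within a complex the highest subunit stood above the lowest by 2.83-fold in complex II, 2.97-fold in complex III and 3.65-fold in complex IV. In complex V the span was 156-fold, from Atp5g2 to Atp5b, and 8.02-fold without the 3 c subunit genes. The 156-fold rests on an uncertain value of Atp5g2, a mean of 4.56 TPM. In a second quantification, described below, Atp5g2 had a mean of 88.4 TPM and Atp5b of 594 TPM.

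**Figure D1:**
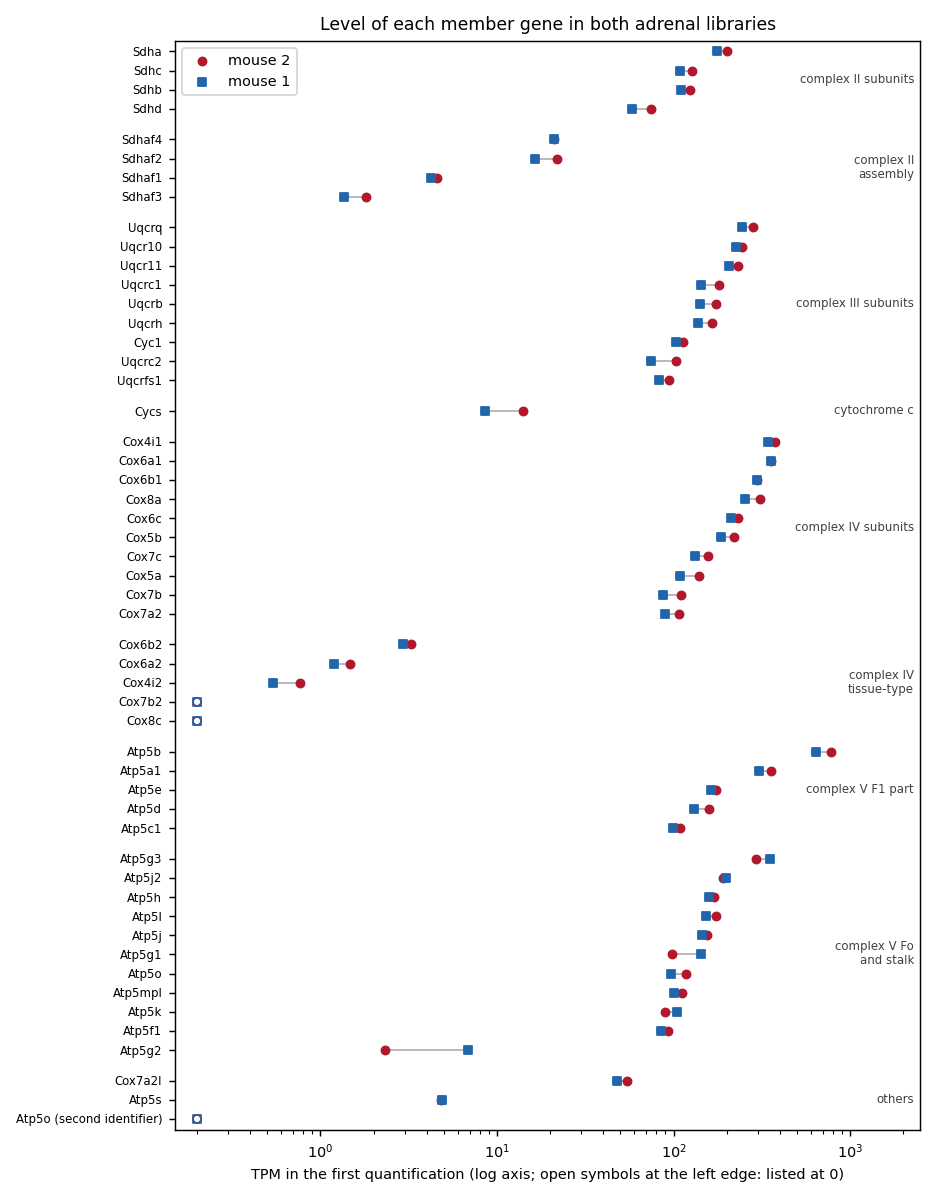
TPM of each member (log axis) in mouse 2 (red circles) and mouse 1 (blue squares), grouped by role; a grey line joins both mice, and open symbols at the left edge are genes listed at 0. Broadly used subunits sit near or above 100 TPM in both mice, and Cycs, Atp5g2, the complex II assembly factors and the tissue-type forms of complex IV sit far to the left.

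**Figure D2:**
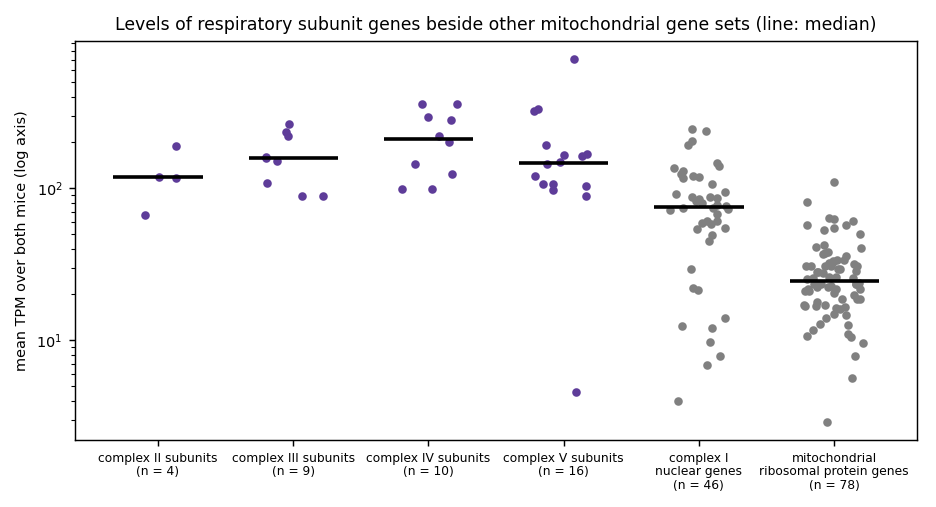
Mean TPM over both mice (log axis) of each gene in 4 subunit sets (purple) and in 2 other mitochondrial gene sets (grey); each point is a gene and each line a median. Medians of the purple sets run from 118 to 212 TPM, above the 75.1 TPM of the complex I set and the 24.5 TPM of the mitochondrial ribosomal set. The complex I set was taken by gene name alone (symbols starting with Nduf, Ndufa4 among them) and includes assembly factors, which the purple sets leave out.

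Differences between the mice were small for nearly every member. A mean of 10 counts or more was reached by 49 members. Of these, 0 were higher in mouse 2 by 2-fold or more, where 1.15% of all 17666 genes tested were, and 1 was at least 2-fold lower, where 1.81% of all genes were. The log2 ratio of mouse 2 over mouse 1, from expected counts scaled by the trimmed mean of M-values, had a median of 0.01 over the members and of -0.00 over all genes. The quartiles of the members were -0.06 and 0.11, against -0.14 and 0.13 for all genes. An exact two-sided binomial test asks whether 2 counts differ beyond counting noise; with Benjamini-Hochberg adjustment over all genes at 0.05, it called 21 of the 49 members, 13 higher and 8 lower in mouse 2. Among all genes it called 21.3%, 10.4% higher and 11.0% lower, so the members' share, 21 of 49, is to be read against that background, and highly counted genes reach the threshold with small ratios. The 3 members not tested were Cox7b2, Cox8c and the second Atp5o identifier, all listed at 0.

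TPM and these ratios are on different scales. TPM is shared out over every feature, and nuclear protein-coding genes held 32.3% of it in mouse 2 and 29.5% in mouse 1, so a gene with equal TPM in both mice, such as Cox6a1, can have a log2 ratio below 0.

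**Figure D3:**
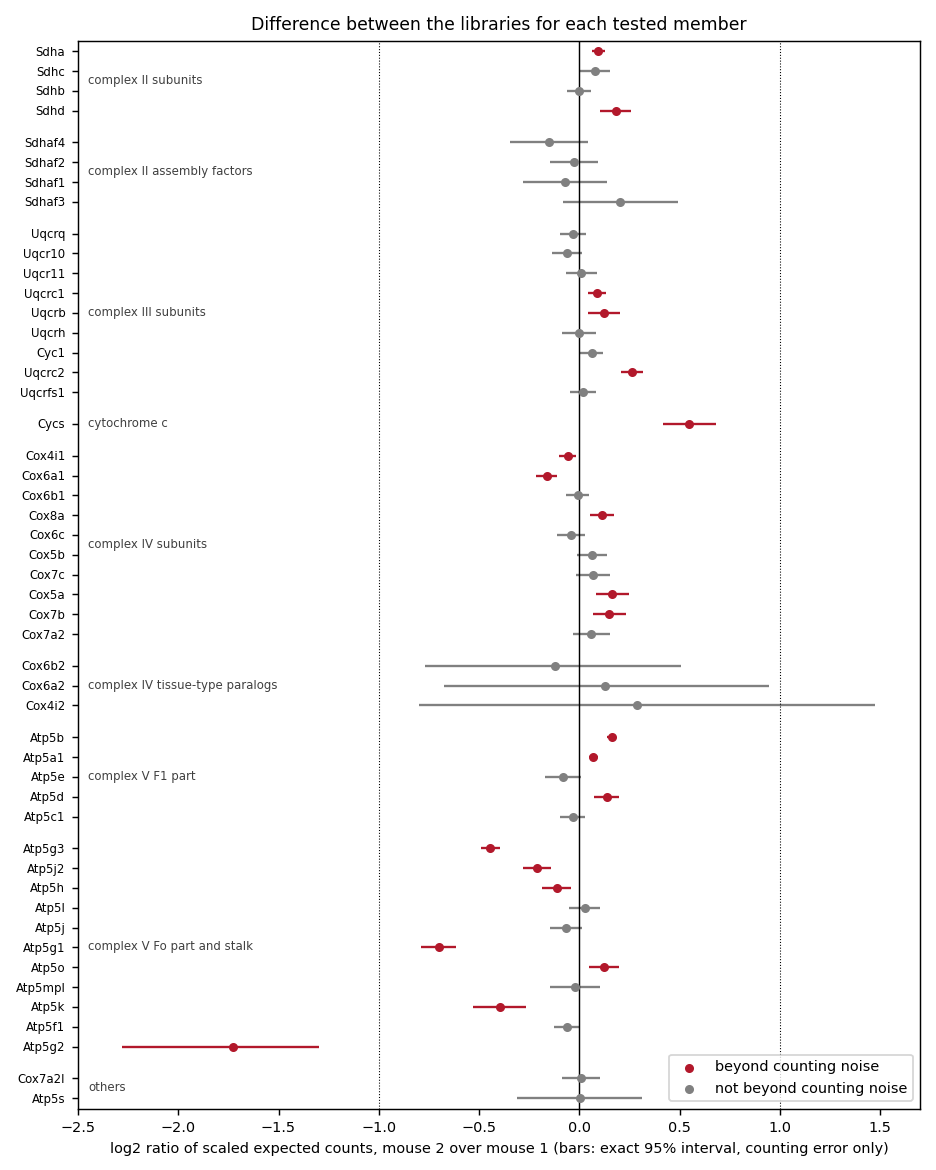
Log2 ratio of scaled expected counts, mouse 2 over mouse 1, for the 49 tested members, with exact 95% intervals that cover counting error only; red marks members beyond counting noise and dotted lines mark 2-fold. Most points lie within 0.2 of 0, and the c subunit genes Atp5g1, Atp5g2 and Atp5g3 and Atp5k lie to the left.

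All 4 subunits of complex II were expressed well above the complex's assembly factors. Sdha, the flavoprotein that oxidises succinate, had 202 TPM in mouse 2 and 175 TPM in mouse 1. Sdhc, a membrane anchor, had 127 and 109 TPM, and Sdhb, the iron-sulfur subunit, had 125 and 110.5 TPM. Sdhd, the other anchor, was the lowest with 74.8 TPM in mouse 2 and 58.5 TPM in mouse 1. Sdha and Sdhd were higher in mouse 2 beyond counting noise, by 0.09 (95% interval 0.06 to 0.13) and 0.18 (0.10 to 0.26) on the log2 scale, and Sdhc and Sdhb were not (0.08 and -0.00). The assembly factors share the Sdha stem and so fell under the rule. Sdhaf4, a chaperone of Sdha, stood at 20.9 TPM in both mice, and Sdhaf2, which helps attach the flavin, at 21.8 TPM in mouse 2, against 16.4 TPM in mouse 1. Sdhaf1 and Sdhaf3, which protect the iron-sulfur clusters of Sdhb, were less abundant, at 4.56 and 4.24 TPM and at 1.80 and 1.36 TPM. None of the 4 factors differed between the mice beyond counting noise.

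The 9 subunits of complex III spanned 88.4 to 263 TPM in their mean over both mice. The small subunits led: Uqcrq had 281 TPM in mouse 2 and 245 TPM in mouse 1, Uqcr10 had 243 and 225 TPM, and Uqcr11 had 233 and 205 TPM. Uqcrfs1, the Rieske iron-sulfur protein that takes the electron from ubiquinol, was the lowest by its mean over both mice, with 94.3 TPM in mouse 2 and 82.5 TPM in mouse 1, although Uqcrc2 was lower in mouse 1. Cyc1, the cytochrome c1 that passes the electron on, had 114 and 104 TPM. Uqcrb, which helps form the ubiquinone site, had 174 and 142 TPM, and Uqcrh, the hinge protein beside cytochrome c1, had 165 and 138 TPM. Uqcrc1, a core subunit, had 179.8 TPM in mouse 2 and 142 TPM in mouse 1. Its partner in the core, Uqcrc2, had 5841 counts in mouse 2 and 5352 in mouse 1, or 103 and 74.9 TPM. It had the largest log2 ratio of the complex, 0.26 (0.21 to 0.31; adjusted p = 7.2e-20, exact binomial test). Uqcrc1 was higher by 0.09 and Uqcrb by 0.12, both beyond counting noise; the other 6 subunits were not and lay between -0.06 and 0.06. With ERCC scaling Uqcrb was no longer beyond counting noise, and Cyc1 was beyond it with total count scaling and in the second quantification.

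The listed level of cytochrome c, the mobile carrier between complexes III and IV, depended on the quantification. A second deposited quantification, made from the same reads with a transcript index, gave Cycs (chr6:50562563-50566538, minus strand) 60.7 TPM in mouse 2, against 46.3 TPM in mouse 1. The gene tables, called the first quantification here and used throughout unless the second is named, gave it 1099 and 825 counts, or 14.05 and 8.58 TPM, far below any broadly used subunit of complexes III and IV. As means with 0.1 TPM added, Cycs was 4.69-fold higher in the second than in the first. Its log2 ratio was 0.33 in the second quantification and 0.55 (0.42 to 0.68; adjusted p = 5.2e-15, exact binomial test) in the first, the highest of all members there.

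The coding sequence of Cycs is repeated almost exactly elsewhere in the genome. Gm10053 (chr19:24875686-24876631, plus strand, annotated as protein-coding) matched all 318 coding bases without a difference. Gm10108 and Gm13772, processed pseudogenes on chromosomes 5 and 2, each had 2 differences. The first 150 coding bases of Cycs (mm10, chr6:50565511-50565660, minus strand) and the same stretch of Gm10108 (chr5:13121617-13121766, minus strand) are shown because a read can be told apart there only by the capital letters, which mark the bases that differ.
Cycs: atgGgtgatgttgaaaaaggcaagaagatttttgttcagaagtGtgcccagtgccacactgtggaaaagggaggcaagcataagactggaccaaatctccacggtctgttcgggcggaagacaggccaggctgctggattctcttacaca
Gm10108: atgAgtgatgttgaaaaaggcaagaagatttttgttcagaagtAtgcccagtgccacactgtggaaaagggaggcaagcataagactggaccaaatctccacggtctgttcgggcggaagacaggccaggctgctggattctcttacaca
Gm10053 reads as the Cycs line throughout. Of all stretches of 101 bases in Cycs transcripts, the fragment length implied by the deposited effective lengths, 22.6% occurred in another gene. The first quantification gave Gm10053 1869 counts in mouse 2 and 1703 in mouse 1, so that Cycs held 34.8% and 30.0% of the counts of its family. Summed with these copies, an alternative added after seeing the data, Cycs reached 101 and 80.7 TPM in the second quantification and 108 and 82.7 TPM in the first. For scale, Uqcrfs1 of complex III had 94.3 TPM in mouse 2 and 82.5 TPM in mouse 1 in the first. The summed log2 ratio of Cycs and its copies was 0.34 (0.26 to 0.41), still higher in mouse 2.

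The 10 broadly used subunits of complex IV had the highest median of the 4 complexes. Cox4i1, which carries the regulatory site for adenine nucleotides, had 376 TPM in mouse 2 and 342 TPM in mouse 1. Cox6a1 had 358 and 356 TPM, and Cox6b1, which links the monomers of the dimer at the cytochrome c side, had 295 TPM in both. Cox8a had 309 TPM in mouse 2 and 253 TPM in mouse 1, Cox6c had 232 and 212 TPM, and Cox5b, whose protein binds zinc, had 219 and 185.5 TPM. Cox7c had 157 and 132 TPM, and Cox5a had 138 and 109 TPM. Nuclear subunits such as these surround the catalytic core that mitochondrial DNA encodes. Cox7a2, with 107 and 89.2 TPM, and Cox7b, with 110.3 and 87.3 TPM, were close together at the low end, Cox7a2 lower in mouse 2 and Cox7b lower in mouse 1. Cox5a, Cox7b and Cox8a were higher in mouse 2 beyond counting noise (0.16, 0.15 and 0.11), and Cox6a1 and Cox4i1 were lower (-0.16 and -0.06); Cox4i1 was not beyond counting noise in the second quantification or with total count scaling. The other 5 lay between -0.04 and 0.07.

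Tissue-type forms of complex IV were nearly silent. Cox6b2, known from testis, had 40 counts in mouse 2 and 48 in mouse 1, or 3.26 and 2.95 TPM, against 295 TPM for its partner Cox6b1 in each. Cox6a2, the heart and skeletal muscle form, had 28 counts in each mouse, or 1.47 and 1.19 TPM. Cox4i2, the form known from lung and low oxygen, had 16 and 14 counts, or 0.77 and 0.54 TPM. As shares of their pair these were 1.09% and 0.990% for Cox6b2, 0.409% and 0.334% for Cox6a2, and 0.205% and 0.158% for Cox4i2. Cox7b2 and Cox8c, both known from testis, were listed at 0 in both libraries and both quantifications. A count of 0, taken as at most 3 counts and covering counting error only, allows up to 0.207 TPM of Cox7b2 in mouse 2 and 0.167 TPM in mouse 1, and up to 0.255 and 0.206 TPM of Cox8c. None of the 3 detected forms differed between the mice beyond counting noise, and their intervals were wide (-0.80 to 1.47 for Cox4i2).

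The excluded muscle and brown fat forms took much larger shares. Cox7a1 had 75.6 TPM in mouse 2 and 40.9 TPM in mouse 1, which was 41.3% and 31.4% of its sum with Cox7a2, and Cox8b had 195 and 130.3 TPM, or 38.7% and 33.97% of its sum with Cox8a. Their log2 ratios were 0.70 and 0.41, beside 0.79 for Ucp1, the uncoupling protein of brown fat, which had 276 TPM in mouse 2, against 141 TPM in mouse 1; the part of fat RNA in these ratios was not tested.

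The catalytic head of complex V held the most abundant member. Atp5b, the catalytic beta subunit (chr10:128083273-128090391, plus strand), had 34688 counts in mouse 2 and 34061 in mouse 1, or 778 and 642 TPM, and ranked 15 of 22015 nuclear protein-coding genes. Atp5a1, the alpha subunit, had 358 TPM in mouse 2 and 303 TPM in mouse 1, less than Atp5b in each. Atp5e, the epsilon subunit, had 173 and 163 TPM, and Atp5c1, the gamma subunit of the rotating shaft, was the lowest with 109 and 99.1 TPM. Atp5d, the delta subunit of the same shaft, had 158 and 129.8 TPM. Atp5b, Atp5d and Atp5a1 were higher in mouse 2 beyond counting noise, by 0.16, 0.14 and 0.07, and Atp5c1 and Atp5e were not (-0.03 and -0.08).

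In the membrane part and stalk, 9 of 11 genes had ratios below 0, with a median of -0.11; with total count scaling the ratio of Atp5mpl was above 0 (0.03). Beyond counting noise, 6 were lower in mouse 2, where 11.0% of all genes were, and 1, Atp5o, was higher, where 10.4% were. In the second quantification Atp5h and Atp5o were no longer beyond counting noise, and with total count scaling Atp5h was not. The c subunit genes stood out in size. Atp5g3 had 5948 counts in mouse 2 and 8880 in mouse 1, or 292 and 352 TPM, a log2 ratio of -0.44 (-0.49 to -0.40; adjusted p = 3.3e-74, exact binomial test). Atp5g1 had 1722 and 3078 counts, or 98.5 and 144 TPM, a log2 ratio of -0.70 (-0.79 to -0.62; adjusted p = 5.6e-59, exact binomial test). Atp5g2 had 46.2 and 173 counts, or 2.31 and 6.81 TPM, a log2 ratio of -1.73 (-2.28 to -1.30). It was the 1 member past 2-fold. In the second quantification, too, all 3 were lower in mouse 2 beyond counting noise, with ratios of -0.45 for Atp5g3, -0.66 for Atp5g1 and -0.18 for Atp5g2. The value of Atp5g2 depends there, too, on how reads are split with its copies, described below. Summed with them, it had 120 TPM in mouse 2 and 96.3 TPM in mouse 1 in the second quantification. Atp5k, the e subunit that helps hold synthase dimers together, had 807 and 1167 counts, or 89.7 and 105 TPM, a log2 ratio of -0.40 (-0.53 to -0.27) and -0.51 in the second quantification. Atp5j2, the f subunit, had 190.0 and 197 TPM and a log2 ratio of -0.21, and Atp5h, the d subunit of the stalk, had 169.8 and 159.5 TPM and -0.11. Of the others, Atp5l, the g subunit, had 175 TPM in mouse 2, against 153 TPM in mouse 1, with a log2 ratio that was -0.17 in the second quantification and 0.03 in the first. Atp5j, coupling factor 6 of the stalk, had 155 and 144 TPM, and Atp5o, the protein that joins stalk and head, had 117 and 96.2 TPM. Atp5mpl, a small proteolipid, had 112 and 101 TPM, and Atp5f1, the b subunit of the stalk, had 92.5 and 84.5 TPM. Without the 3 c subunit genes the other 13 genes of complex V had a median of -0.03.

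Atp5g1, Atp5g2 and Atp5g3 encode the same mature c subunit, the small protein whose ring turns in the membrane, each behind a different targeting peptide. Over the last 75 codons their translations did not differ, while the bases differed at 34 of 225 positions between Atp5g1 and Atp5g2, at 45 between Atp5g1 and Atp5g3 and at 48 between Atp5g2 and Atp5g3. The first 120 bases of that stretch are shown because reads are assigned among the 3 genes by these differences, which capitals mark (mm10, spliced over 2 exons, minus strand: chr11:96073212-96073635, chr15:102663122-102665166 and chr2:73908701-73909296).
Atp5g1: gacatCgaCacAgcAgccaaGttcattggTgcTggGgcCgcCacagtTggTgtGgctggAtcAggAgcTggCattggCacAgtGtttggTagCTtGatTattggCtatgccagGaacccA
Atp5g2: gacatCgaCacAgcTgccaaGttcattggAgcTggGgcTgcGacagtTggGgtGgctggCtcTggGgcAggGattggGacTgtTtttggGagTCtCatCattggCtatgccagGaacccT
Atp5g3: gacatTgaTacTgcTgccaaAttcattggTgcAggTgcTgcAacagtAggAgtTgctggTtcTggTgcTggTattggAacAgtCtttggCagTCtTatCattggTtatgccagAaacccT
No stretch of 101 bases is shared between these 3 genes. Overlap lies with copies: Gm10175 (chr7:23946646-23947290, minus strand, a transcribed processed pseudogene) and Gm10231 on chromosome 17 match the 441 coding bases of Atp5g2 without a difference, and 86.4% of the 101-base stretches of its leading transcript occur in them. The second quantification gave Atp5g2 88.0 TPM in mouse 2, against 88.9 TPM in mouse 1, and Gm10175 32.5 and 7.40 TPM. The first gave Gm10175 2221 and 2163 counts and left Atp5g2 with 2.04% and 7.39% of the family. Summed with its copies in the first quantification, Atp5g2 had a log2 ratio of 0.091 (0.01 to 0.18), not beyond counting noise, so its 2-fold difference did not remain. Atp5g1 had a log2 ratio of -0.70 with its copy Gm10039, as without it, and Atp5g3 shares no 101-base stretch with another gene.

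Between the quantifications, 48 members with a mean of at least 1 TPM in either could be compared. The second gave 2 members at least 2-fold higher values, Atp5g2 by 19.0-fold and Cycs by 4.69-fold, where 3.56% of 14128 genes were, and 0 members at least 2-fold lower values, where 3.93% of genes were. The median member was 1.08-fold higher in the second. Both members were within 2-fold once summed with their copies, at 0.940-fold and 0.954-fold. Cox7c, a small subunit of complex IV, went the other way: alone it had 249 and 199 TPM in the second quantification and 157 and 132 TPM in the first, a fold of 1.55, and summed with its copies it stood at 0.482-fold.

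The Cox7c family turns on very short copies. Gm12338 (chr11:75599763-75599954, minus strand) is a processed pseudogene of 192 bases, identical to the whole coding sequence of Cox7c, and Gm10012 on chromosome 17 has 2 differences. The Cox7c line (mm10, chr13:86045753-86046675, minus strand, 2 exons) and Gm10012 (chr17:25901862-25902053, plus strand) are shown with those differences in capitals.
Cox7c: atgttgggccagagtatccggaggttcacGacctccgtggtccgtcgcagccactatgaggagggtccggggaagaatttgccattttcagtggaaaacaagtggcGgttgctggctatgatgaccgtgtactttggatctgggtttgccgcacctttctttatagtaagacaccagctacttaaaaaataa
Gm10012: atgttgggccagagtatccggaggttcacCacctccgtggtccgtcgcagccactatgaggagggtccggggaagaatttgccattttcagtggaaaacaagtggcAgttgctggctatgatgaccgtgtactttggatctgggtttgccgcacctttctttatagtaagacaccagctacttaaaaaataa
The second quantification listed Gm12338 at 0, while the first gave it 995 counts in mouse 2 and 1009 in mouse 1. Its effective length is its length less 100 bases, so these counts came to 329 and 269 TPM, above Cox7c itself. Cox7c had 2187 and 2293 counts, and its log2 ratio was 0.07 alone and 0.09 with its copies.

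**Figure D4:**
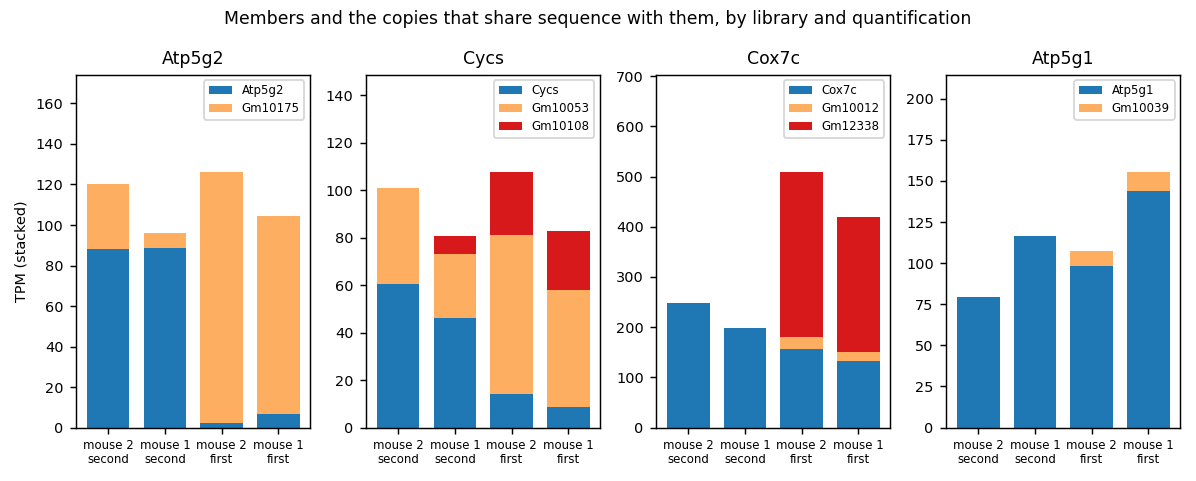
Stacked TPM of Atp5g2, Cycs, Cox7c and Atp5g1 (blue) and of the copies that share sequence with them (orange and red), for mouse 2 and mouse 1 in the second and then the first quantification. For Atp5g2 the family sum is alike in both quantifications (120 and 96.3 TPM against 126 and 104 TPM) while the share of Atp5g2 is not, and Atp5g1 is lower in mouse 2 in both.

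**Figure D5:**
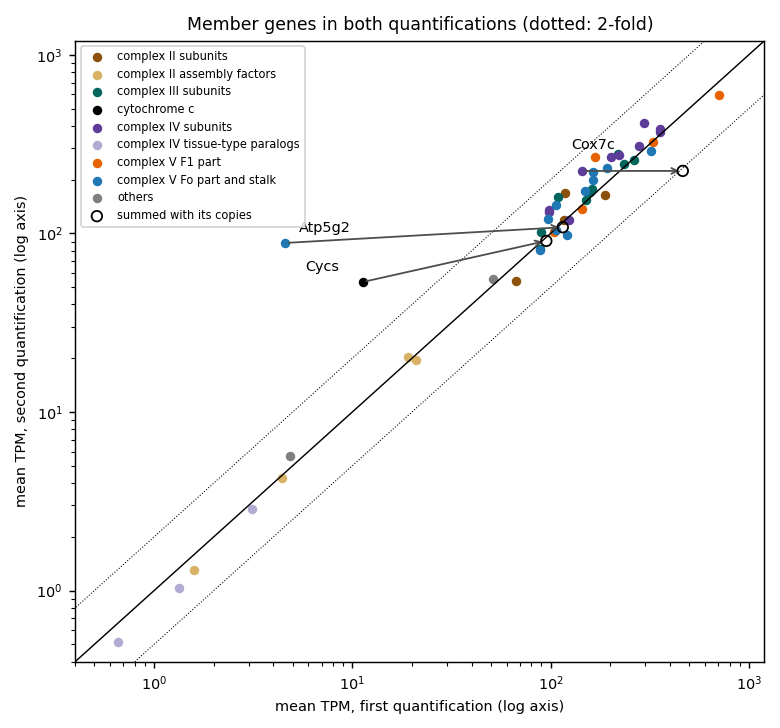
Mean TPM over both mice in the second quantification (vertical, log axis) against the first (horizontal, log axis); each point is a member coloured by role, dotted lines mark 2-fold, and arrows lead to 3 members summed with their copies. Atp5g2 and Cycs lie above the upper dotted line alone and near the diagonal when summed.

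Across all members, 14 shared at least 1 stretch of 101 bases with a gene elsewhere in the genome and 38 shared none. Over all annotated transcripts, the 7 with at least 5% of their stretches shared were Atp5g2 (34.7%), Cycs (22.6%), Cox7c (16.02%), Atp5h (11.4%), Uqcrb (8.65%), Cox7a2l (7.70%) and Atp5g1 (5.88%). Over the leading transcript alone the highest shares were 86.4% for Atp5g2, 61.3% for Atp5l, 57.3% for Atp5g1, 44.1% for Cox7c and 32.4% for Atp5h. Atp5l, at 4.16% over all its transcripts, shared stretches with Gm10221 among others. The first quantification gave Gm10221 621 counts in mouse 2 and 674 in mouse 1. The deposited posterior SD, which states how firmly the model could split reads, was largest for genes with shared stretches. It exceeded 10% of the count in both mice for 1 tested member, Atp5g2 (34.2% and 22.5%), where 3.65% of all genes did, and was 0 in both mice for 32 members. The next were Cycs (2.16% and 2.62%), Atp5l (1.81% and 1.89%), Cox7c (1.66% and 1.51%) and Atp5g1 (1.40% and 0.837%).

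Of the members with reads, Atp5s, coupling factor B, had the leading transcript of lowest mean share: it took 49.5% in mouse 2 and 16.2% in mouse 1 of a gene with 4.81 and 4.91 TPM. The gene had 166 and 182 counts. At Sdhaf2 the leading transcript took 34.5% and 37.8%, and that of Cox7b took 50.8% and 52.2%, alike in both mice. The leading transcript of Cox6b1 took 89.2% in mouse 2 and 68.8% in mouse 1. Cox7a2l, which joins complexes III and IV into supercomplexes, had 54.3 and 47.9 TPM, with 97.8% and 98.6% of it in 1 transcript.

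In the first quantification, the subunits encoded in mitochondrial DNA were far more abundant than the members. Their means over both mice ran from 4611 to 7999 TPM. For mt-Co1, of complex IV, the second quantification gave 8759 TPM in mouse 2, against 6923 TPM in mouse 1, while the first gave 8879 and 7120 TPM. For mt-Cytb, of complex III, the second gave 5455 and 4559 TPM and the first 5693 and 4964 TPM. Their log2 ratios in the first were 0.14 and 0.02. For mt-Co2, also of complex IV, the second gave 1871 and 2375 TPM while the first gave 2187 and 9964 TPM, and for mt-Atp8, of complex V, the second gave 13.8 and 30.5 TPM while the first gave 3920 and 5734 TPM. For mt-Co3, of complex IV, the second gave 5133 TPM in mouse 2, against 5399 TPM in mouse 1, and the first 4074 and 7079 TPM. For mt-Atp6, of complex V, the second gave 11841 and 9550 TPM and the first 5205 and 4017 TPM. The sizes of the differences between the mice in mt-Co2, mt-Co3 and mt-Atp8 therefore depended on the quantification and are uncertain. The levels of mt-Co2, mt-Atp6 and mt-Atp8 depended on it too. In the second, mt-Atp8 lay below the median member (136 TPM).

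Assembly genes outside the rule were tested too. Of 22 complex IV assembly genes 0 were higher and 5 lower in mouse 2 beyond counting noise, where 10.4% of all genes were higher and 11.0% lower, a background that holds for the next lists too. Cox17, the copper chaperone, had 91.35 TPM in mouse 2 and 109 TPM in mouse 1 and a log2 ratio of -0.34, and Cox14 had 82.4 and 87.2 TPM and -0.26. The 3 others were Surf1, Cox20 and Pet117. Surf1 had 39.3 TPM in both mice, and in the second quantification 41.0 TPM in mouse 2 and 37.5 TPM in mouse 1. Cox20 had 28.65 and 34.4 TPM, and 34.2 and 41.5 TPM in the second. Pet117 had 2.40 and 3.58 TPM, but 0 and 0.643 TPM in the second, so its call is uncertain. Of 6 complex III assembly genes 1 was higher, Lyrm7 with 2.91 and 1.76 TPM and a log2 ratio of 0.45, and 1 was lower, Uqcc3 with 21.4 and 26.1 TPM and -0.46. Of 5 genes for assembly and control of complex V 0 were higher and 1 lower: Atpif1, the inhibitor that blocks reverse rotation of the synthase, with 101 and 115 TPM and -0.34.

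Of 9 regulators of these genes, 5 were higher in mouse 2 beyond counting noise and 0 lower, beside 10.4% and 11.0% of all genes. Ppargc1a, a coactivator of mitochondrial genes known from brown fat, had 3.19 TPM in mouse 2 and 1.31 TPM in mouse 1, a log2 ratio of 1.20, and its relative Ppargc1b had 3.59 and 1.91 TPM and 0.69. Yy1, the most abundant regulator listed, had 26.7 and 21.05 TPM and 0.25. Esrra and Pprc1 were the others called higher, with log2 ratios of 0.18 and 0.17. Nrf1 had 6.40 and 6.42 TPM and Gabpa 11.7 and 10.5 TPM, and neither differed beyond counting noise (-0.08 and 0.01). The fat markers given above were higher in mouse 2 together with the coactivators, and the part of fat RNA in these ratios was not tested.

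Nrf1 and Gabpa encode factors long known to bind promoters of respiratory genes, so the RefSeq promoters of the members (GRCm38.p6, 250 bases before to 50 after the start) were searched on both strands. A promoter was found for 39 of the 52 members. The core of the Nrf1 motif, GCGCATGC, lay in 8 of them (20.5%), against 6.10% of genes with at least 1 TPM in both mice and 3.05% of all genes. The Gabpa motif CCGGAAG, whose factor is also called NRF-2, lay in 15 (38.5%), against 20.3% and 9.93%. For complex I genes the shares were 12.5% and 15%, and for mitochondrial ribosomal protein genes 11.6% and 37.7%. The cyclic AMP element TGACGTCA lay in 2 members (5.13%), Cycs and Uqcrfs1, against 3.66% of expressed and 2.03% of all genes. Members with the Gabpa motif had a median of 152 TPM over both mice and those without 105 TPM, and their median log2 ratios were -0.01 and 0.02. A match describes letters only and shows no binding.

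The promoters of Cycs and Cox6a1 are shown as examples that hold 2 of the motifs, in capitals. Atp5k, Atp5l, Sdhb and Uqcr11 also held both the Nrf1 and the Gabpa motif, with their nearest matches closer together. For Cycs the run covers 180 to 41 bases before the start (chr6:50566610-50566749, minus strand) with the cyclic AMP element first and the Nrf1 motif second; for Cox6a1 it covers the 180 bases before the start (chr5:115348959-115349138, minus strand) with 2 overlapping matches of the Nrf1 motif first and the Gabpa motif, on the other strand, second.
Cycs: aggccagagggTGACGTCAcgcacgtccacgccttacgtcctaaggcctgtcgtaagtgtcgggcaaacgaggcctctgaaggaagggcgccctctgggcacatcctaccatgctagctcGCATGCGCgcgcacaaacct
Cox6a1: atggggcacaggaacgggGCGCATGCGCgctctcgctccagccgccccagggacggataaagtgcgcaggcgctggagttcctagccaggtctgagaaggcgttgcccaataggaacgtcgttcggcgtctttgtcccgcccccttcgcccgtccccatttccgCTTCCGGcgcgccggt
Cycs had a log2 ratio of 0.55, or 0.34 summed with its copies, and Cox6a1 of -0.16. Over the 8 members with the Nrf1 motif the median log2 ratio was 0.004, against -0.001 for those without. A link of motif and ratio was not tested.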

How the data were processed

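Total RNA-seq of 2 adrenal libraries of 1 group was used. Tables rest on mm10 and GENCODE M21, per the deposited text files and headers. No source used here names the aligner or quantifiers. The deposited gene tables hold expected counts, TPM and FPKM made from transcriptome alignments, with a posterior SD; each transcript's share of its gene is deposited in percent, per the file headers. A second deposited table holds estimated counts and TPM, made from the reads with a transcript index. The mm10 reference is of another strain than CAST, and whether reads of CAST alleles were assigned alike was not tested.

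Rows that name no gene, ERCC included, took 0.527% of counts in mouse 2 and 0.503% in mouse 1 and were left out. Library sizes were TMM-scaled (edgeR 4.0.16, R 4.3.3) over the 17666 genes whose mean was 10 counts or more; log2 ratios used a prior count of 2, and counts were rounded for the exact binomial tests (scipy 1.17.1), which cover counting error only. DESeq2 1.42.0 size factors were an alternative. Quantifications were compared as means with 0.1 TPM added. The ratio and test were tested on simulated data. Shared stretches were exact matches of 101 bases in GENCODE M21 transcripts.

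Every member could be named. Values were given in full for the 3 highest and the lowest by mean TPM in each role, tissue-type forms, members 2-fold apart, the 5 largest and 5 smallest ratios and the 5 largest posterior SDs. Other pathway genes were to be named by mean TPM, up to 4 a list. Cox20, Pet117, Lyrm7, Nrf1, mt-Atp6, mt-Atp8, Ppargc1a, Ppargc1b and Pprc1, the copies and the sequences were chosen after values were seen. The members and lists were chosen with earlier results of these data known.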

Additional observations from a re-analysis of the deposited data

How the results depend on the processing

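Levels, shares and counts of members were recomputed under other scalings, filters or quantifications, and levels, shares and comparisons of the quantifications also without each mouse. Promoter motifs, leading transcripts and genes outside the rule were not. The median log2 ratio of the members was 0.01 as reported and ran from -0.01 with ERCC scaling to 0.06 with total counts. Their median level was 118 TPM as reported, 136 TPM in the second quantification, 380.5 TPM when TPM was rescaled to nuclear protein-coding genes and 132 TPM over full transcript length; leaving out 1 mouse gave 109 to 121 TPM. Summing members with the genes that share a 101-base stretch was an alternative chosen after seeing the data. The count at least 2-fold lower in mouse 2 was 1 as reported (Atp5g2), 0 in the second quantification and 0 when summed with copies. When summed, 0 members stood 2-fold above their first value in the second quantification and 1 stood 2-fold below it (Cox7c). The log2 ratio kept its sign in 41 of 49 members with total count scaling, 42 in the second quantification and 45 with ERCC scaling. Among members beyond counting noise in either fit, it changed sign for Atp5g2 when summed (0.091) and for Atp5l in the second quantification (-0.17). As means over both mice, shares of the pair in the second quantification were 0.129% for Cox4i2, 0.280% for Cox6a2 and 0.687% for Cox6b2. Shares of the summed TPM of the 3 c subunit genes were 20.4% for Atp5g1, 18.8% for Atp5g2 and 60.8% for Atp5g3 there. As reported, these 3 shares were 26.8%, 0.971% and 72.2%. Members beyond counting noise numbered 20 to 23, with 19 of the reported 21 shared under total count scaling and 18 in the second quantification; the second quantification lost Atp5h, Atp5o and Cox4i1, total count scaling Atp5h and Cox4i1, and ERCC scaling Uqcrb. Without a count filter 1346 and 1310 of all genes were 2-fold higher and lower in mouse 2, against 204 and 319. The cause was not tested. No paired analysis was possible because there is 1 group. With 1 library for each mouse, intervals cover counting error only, and tissue-type forms with under 50 counts have wide ones.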
